A study of Mus musculus with 2 samples.

Results

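DNA replication and nucleotide supply were followed through 48 genes in a pair of mouse acute promyelocytic leukaemias, APL#2 and APL#1. The 48 genes were chosen by function, as the genes of S phase that license origins, unwind, copy and repackage DNA and make its building blocks. Earlier results of these data were known when they were chosen, so their shares beside all genes are descriptions. Each was matched by its symbol to 1 row of a deposited table of 23235 genes. APL#2 and APL#1 are myeloid leukaemias carrying the PML-RAR fusion, from mCG-PML-RAR transgenic mice whose genotype is given as PML-RAR KI APL, and the labels do not spell out mCG. Both came from C57BL/6-Ly5.2 animals aged 10 weeks, are labelled untreated though both titles carry VEH, and were grown in recipients of C57BL/6-Ly5.1, which are CD45.1+ and were not irradiated, from 200000 injected cells for APL#2 and 2000000 for APL#1. Spleen CD45.2+ cells were taken by immunomagnetic columns, and the RNA of each leukaemia gave 1 library. Each group is 1 transplanted leukaemia, so the leukaemia, the recipient, the cell dose and the library cannot be told apart, no difference below has a replicate check, and no test was run.

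In eukaryotic cells the origin recognition complex marks sites on DNA, and Cdc6 and Cdt1 load the ring-shaped Mcm helicase there before S phase. Kinases then recruit Cdc45 and the GINS complex, which turn the ring into an active helicase, and primase, the replicative polymerases, the Pcna clamp and its loader copy the strands. Ribonucleotide reductase and the enzymes of thymidylate synthesis supply the nucleotides, chromatin assembly factors rebuild nucleosomes behind the fork, and E2F factors and cyclin E raise many of these genes as cells enter S phase. Acute promyelocytic leukaemia cells are arrested in maturation and keep dividing, and genes of this set are widely used in bulk RNA as a mark of cycling cells.

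Most of the 48 genes were lower in APL#2 than in APL#1, by a moderate amount. FPKM, a level per length of transcript and depth of library, was lower in APL#2 for 45 of the 48 genes (93.8%), against 67.3% of the 10204 genes whose mean FPKM was at least 0.1, a level all 48 reached. The ratio of APL#2 to APL#1 had a median of 0.609 over the 48 genes and 0.851 over those 10204. A ratio of 1/1.5 or less was found in 32 of the 48 (66.7%) and in 23.0% of all genes at that level, and a ratio of 1/2 or less in 10 of the 48 and 8.78% of all. Among the 9132 genes whose mean lay within the range of the 48, 68.7% were lower in APL#2 and 22.6% had a ratio of 1/1.5 or less. Of the 48, Pola2, Tk1 and Fen1 were higher in APL#2 on the deposited scale. The 48 values summed to 69.1 FPKM in APL#2 and 114.2 FPKM in APL#1, a ratio of 0.605. In bulk RNA, fewer cycling cells and less RNA of these genes per cell cannot be told apart.

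The scaling of the libraries bears on these shares, since the deposited values of most genes were lower in APL#2. Over the 4100 genes that reached a mean FPKM of 1, called measured below, the median difference in log2(FPKM + 1), APL#2 minus APL#1, was -0.17. The 34 measured genes of the 48 had a median difference of -0.47, which is -0.29 relative to all measured genes, and 28 of the 34 lay below the all-gene median, where 50.0% of genes lie by definition. After each library was divided by its upper quartile, 42 of the 48 genes were lower in APL#2 (87.5%), against 49.2% of all genes, and Cdt1, Pola1 and Rpa3 then joined the 3 higher ones. A ratio of 1/1.5 or less was then found in 33.3% of the 48 and 12.8% of all genes.

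Counting error was small beside many of these ratios, whereas the error of the authors' model was large. From the low values, 1 fragment on 1 kb of transcript was worth about 0.0180 FPKM in APL#2 against 0.0194 in APL#1, so the 48 genes rested on an estimated 14 to 854 fragments in APL#2 and 22 to 1271 in APL#1. The ends of these ranges are Tyms and Rfc2, with assumed transcript lengths of 0.559 and 4.995 kb. The fragments and the intervals below depend on such assumed lengths for every gene, and the lengths were not checked. The 95% counting interval of the ratio lay below 1 for 36 of the 48 genes, against 34.8% of 8768 genes. Those 8768 have a known transcript length, a mean FPKM of at least 0.1 and values above 0 in both libraries. It lay below the all-gene median ratio of 0.833 for 24 of the 48, against 17.5% of those 8768, and above it for 3 (Pola2, Tk1 and Fen1), against 21.3%. Fen1 cleared that ratio only narrowly, with a lower bound of 0.8332 against 0.8328. An interval above 1 was found for 1 gene of the 48, Pola2, since those of Tk1 (0.946 to 1.66) and Fen1 (0.833 to 1.36) hold 1. These intervals cover counting error only. The shares are not matched for level, and intervals are narrower at higher levels. A mean FPKM of 1 was reached by 34 of the 48 genes, against 4100 of the 10204 genes at a mean of at least 0.1. How much of the excess comes from level was not tested. The standard error implied by the test statistics in the authors' deposited table had a median of 1.02 on the log2 scale over the 48 genes. No gene of the 48 passed the test in the authors' deposited table, where q was at least 0.999997 for each and the lowest p was 0.0774, for Pcna. Few genes of any kind passed there, since 11 of the 23235 had a q of at most 0.05.

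**Figure D1:**
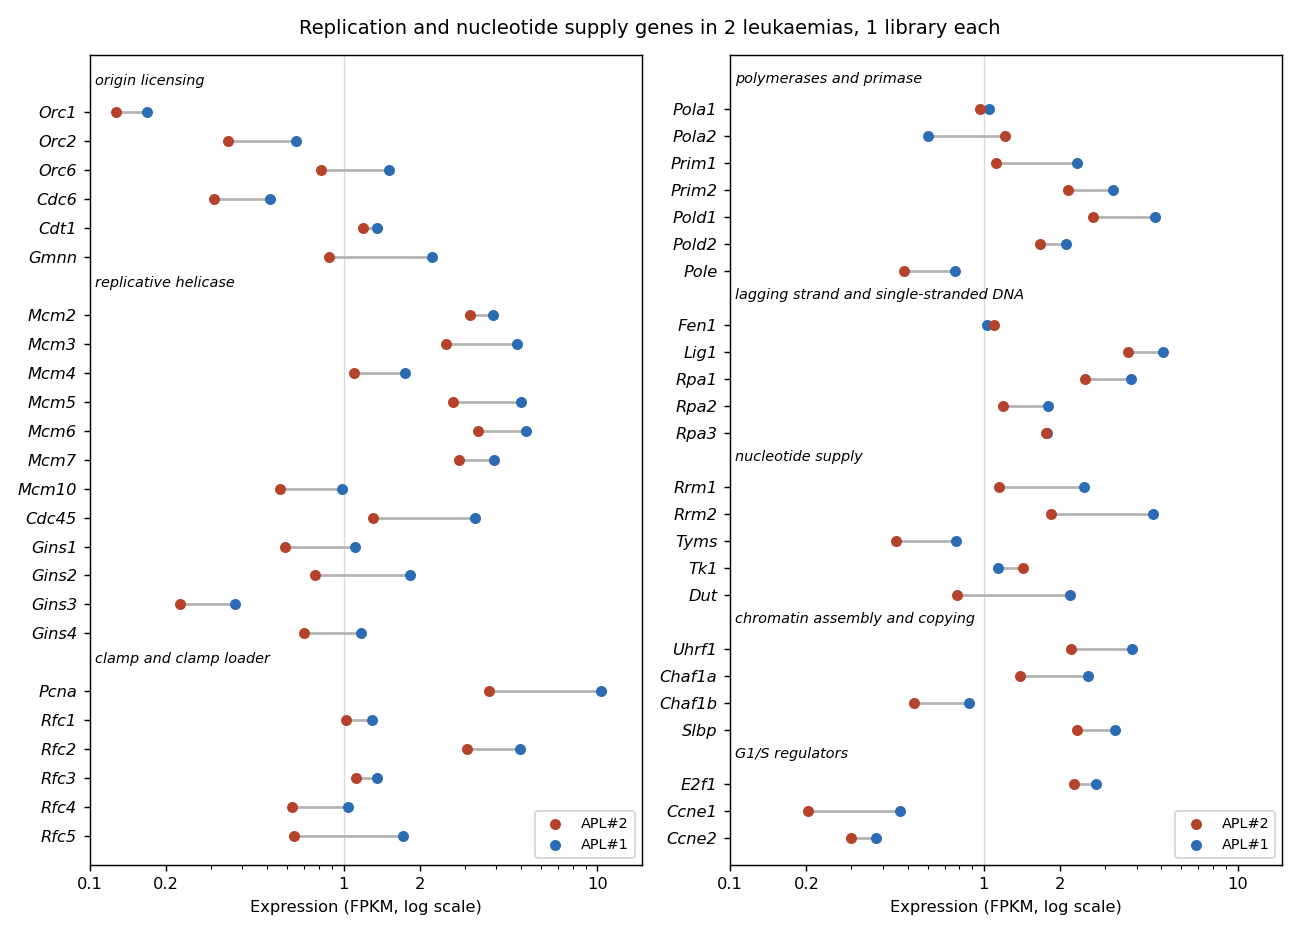
FPKM (log axis) of the 48 genes in APL#2 (red) and APL#1 (blue), 1 library each, grouped by role and joined by a line. Red lies left of blue except for Pola2, Tk1 and Fen1, and the longest gaps include Pcna (3.74 in APL#2 and 10.3 in APL#1) and Dut (0.785 in APL#2 and 2.19 in APL#1).

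The promoters of 4 genes are shown because these genes mark the ends of the range: Pcna and Pola2 had the largest differences in log2(FPKM + 1) in either direction, and Rrm2 and Rpa3 the largest and the smallest difference among measured genes whose promoter holds an E2F match. The sequences are from RefSeq on GRCm38.p6, run from 250 bases before the transcript start to 50 after it, and are given 5′ to 3′ on the gene's strand, with E2F matches in capitals. Pcna lies at chr2:132253131-132253430 (minus strand), Pola2 at chr19:5964157-5964456 (minus strand), Rrm2 at chr12:24708004-24708303 (plus strand) and Rpa3 at chr6:8259092-8259391 (minus strand).
Pcna: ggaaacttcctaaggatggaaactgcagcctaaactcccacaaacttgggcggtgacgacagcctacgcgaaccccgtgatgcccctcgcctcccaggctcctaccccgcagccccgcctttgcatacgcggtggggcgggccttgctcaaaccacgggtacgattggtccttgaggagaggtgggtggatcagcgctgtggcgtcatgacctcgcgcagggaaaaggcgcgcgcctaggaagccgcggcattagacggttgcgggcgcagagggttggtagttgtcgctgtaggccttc
Pola2: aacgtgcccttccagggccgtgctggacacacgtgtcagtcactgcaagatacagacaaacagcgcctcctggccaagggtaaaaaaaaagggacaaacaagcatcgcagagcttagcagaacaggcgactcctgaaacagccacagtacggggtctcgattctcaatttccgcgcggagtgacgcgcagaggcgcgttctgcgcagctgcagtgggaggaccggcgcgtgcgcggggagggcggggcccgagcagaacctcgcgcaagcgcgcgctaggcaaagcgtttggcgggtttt
Rrm2: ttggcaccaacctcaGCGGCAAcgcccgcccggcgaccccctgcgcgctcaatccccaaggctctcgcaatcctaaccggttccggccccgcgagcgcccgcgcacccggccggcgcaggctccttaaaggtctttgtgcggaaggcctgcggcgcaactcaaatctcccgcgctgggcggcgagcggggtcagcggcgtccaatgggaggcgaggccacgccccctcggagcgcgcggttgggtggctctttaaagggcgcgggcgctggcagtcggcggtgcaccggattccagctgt
Rpa3: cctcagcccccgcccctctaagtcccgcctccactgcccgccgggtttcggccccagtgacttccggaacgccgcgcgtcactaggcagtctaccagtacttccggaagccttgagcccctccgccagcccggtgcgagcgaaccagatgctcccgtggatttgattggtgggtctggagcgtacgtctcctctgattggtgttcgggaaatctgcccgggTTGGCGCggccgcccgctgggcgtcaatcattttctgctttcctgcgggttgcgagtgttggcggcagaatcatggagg

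E2F matches were common in these promoters. The letters searched for, on both strands, were TTCCCGC as 1 form of the E2F site, TTGGCGC as another, then TTCGCGC and, as the last form, TTGCCGC. The promoter table matched 39 of the 48 genes by symbol. A match was found in 23 of the 39 (59.0%), against 21.8% of 2946 measured genes and 10.9% of 27025 genes in the table, with a gene counted once where it has several start sites, and matches can overlap. The match in Rpa3 begins at position -29 from the start and that in Rrm2 at -235, and neither Pcna nor Pola2 holds these letters in this window. CCAAT, the core of the NF-Y box, was found on either strand in 64.1% of the 39, against 44.8% of measured genes, and TTTGAA, a core of the CHR element of late cell cycle genes, in 12.8% against 13.9%. Genes with and without an E2F match had like ratios of APL#2 to APL#1. The median was 0.610 for the 23 genes with a match (0.397 to 1.07) and 0.575 for the 16 without (0.359 to 2.01). A match describes the letters and not a bound site.

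Origin licensing genes were all lower in APL#2, and geminin stood furthest apart. Gmnn, which encodes geminin, the inhibitor of Cdt1, stood at 0.878 FPKM in APL#2 against 2.24 in APL#1, and its ratio was 0.392 with a counting interval of 0.273 to 0.563. Cdt1, the licensing factor that geminin binds, stood at 1.19 FPKM in APL#2 against 1.36 in APL#1, and its ratio was 0.877 with an interval of 0.698 to 1.10. The licensing factor and its inhibitor therefore differed by unequal amounts, and Gmnn over Cdt1 was 0.739 in APL#2 and 1.65 in APL#1. Orc6, a subunit of the origin recognition complex, stood at 0.814 FPKM in APL#2 against 1.52 in APL#1. The complex's Orc2 (0.350 FPKM in APL#2 against 0.651 in APL#1) had nearly the same ratio, 0.538 against 0.536 for Orc6. Orc1, the subunit whose level varies most through the cycle in human cells, was the lowest of the 48 at 0.127 FPKM in APL#2 against 0.168 in APL#1, and its interval of 0.425 to 1.34 holds the all-gene ratio. Cdc6, the loader that works with Cdt1, stood at 0.310 FPKM in APL#2 against 0.513 in APL#1.

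All 12 genes of the replicative helicase were lower in APL#2, with ratios from 0.396 to 0.814 and a median of 0.581. The 6 subunits of the Mcm ring are needed in equal numbers, and their RNA levels kept their spread: the highest, Mcm6, was 3.06 times the lowest, Mcm4, in APL#2 and 2.99 times in APL#1. Mcm6 stood at 3.38 FPKM in APL#2 against 5.24 in APL#1, and Mcm4 at 1.10 FPKM in APL#2 against 1.75 in APL#1. Mcm3 stood at 2.54 FPKM in APL#2 against 4.84 in APL#1, and Mcm5 at 2.70 FPKM in APL#2 against 5.02 in APL#1. Their ratios of 0.526 and 0.538 were the lowest of the ring. Mcm7 stood at 2.84 FPKM in APL#2 against 3.92 in APL#1, and its interval holds 3 microRNA genes, Mir106b, Mir25 and Mir93. Mcm2 had the highest ratio of the ring, 0.814, at 3.16 FPKM in APL#2 against 3.88 in APL#1, and it lies in a stretch of chromosome 6 where most genes were higher in APL#2.

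The factors that activate the ring had ratios from 0.396 to 0.610, beside 0.526 to 0.814 for its subunits. Cdc45, which joins the ring at the start of S phase, stood at 1.30 FPKM in APL#2 against 3.29 in APL#1, and its ratio was 0.396 with a counting interval of 0.322 to 0.488. Gins2 stood at 0.775 FPKM in APL#2 against 1.83 in APL#1 (ratio 0.423), but its row shares 1 interval with Gse1 and the implied standard error is 2.28 on the log2 scale. The other GINS subunits were lower by like amounts. Gins1 stood at 0.586 FPKM in APL#2 against 1.11 in APL#1, Gins4 at 0.697 FPKM in APL#2 against 1.18 in APL#1, and Gins3 at 0.227 FPKM in APL#2 against 0.372 in APL#1. Mcm10, which helps to start unwinding, stood at 0.560 FPKM in APL#2 against 0.983 in APL#1.

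The sliding clamp had the largest difference of the 48 and was the highest of them in both libraries. Pcna, the ring that tethers polymerases to DNA, stood at 3.74 FPKM in APL#2 against 10.3 in APL#1, and its ratio was 0.362 with a counting interval of 0.318 to 0.412. Its difference in log2(FPKM + 1) was -1.26, and it was the 1 gene of the 48 at least 2-fold lower on that scale, a fold found in 2.44% of measured genes, whereas no gene of the 48 was at least 2-fold higher (2.1% of measured genes). Pcna has 2 named pseudogenes, Pcna-ps1 and Pcna-ps2, so its level is uncertain where reads were split. The clamp loader genes differed less evenly. Rfc5 stood at 0.636 FPKM in APL#2 against 1.72 in APL#1 (ratio 0.370), and Rfc2 at 3.08 FPKM in APL#2 against 4.95 in APL#1 (ratio 0.621). Rfc4 (0.625 FPKM in APL#2 against 1.05 in APL#1) shares an interval with Eif4a2, Snora81 and Snord2 and had the largest implied standard error of the 48, 2.74. Rfc3 (1.12 FPKM in APL#2 against 1.35 in APL#1) and the large subunit gene Rfc1 (1.02 FPKM in APL#2 against 1.29 in APL#1) had ratios of 0.830 and 0.791, close to the all-gene ratio.

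Among polymerase genes, the subunits of the primase and polymerase alpha complex differed by unequal amounts and in both directions. Prim1, the catalytic subunit of primase, stood at 1.12 FPKM in APL#2 against 2.33 in APL#1 (ratio 0.481), and Prim2, its partner, at 2.14 FPKM in APL#2 against 3.24 in APL#1 (ratio 0.660). Pola1, the catalytic subunit of polymerase alpha, stood at 0.962 FPKM in APL#2 against 1.05 in APL#1 (ratio 0.919). Pola2, its accessory subunit, went the other way, at 1.21 FPKM in APL#2 against 0.601 in APL#1, and its ratio was 2.01 with an interval of 1.42 to 2.85. Pola2 over Pola1 was 1.26 in APL#2 and 0.574 in APL#1, and Pola2 lies on chromosome 19, where most genes were higher in APL#2. Pold1, the catalytic subunit of the lagging strand polymerase, stood at 2.69 FPKM in APL#2 against 4.71 in APL#1. Pold2, its accessory subunit, stood at 1.67 FPKM in APL#2 against 2.11 in APL#1 and shares an interval with Aebp1. Pole, of the leading strand polymerase, stood at 0.486 FPKM in APL#2 against 0.768 in APL#1.

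Genes of lagging strand processing and single-stranded DNA binding differed least among the replisome groups, with a median ratio of 0.729 over 5 genes. Lig1, the ligase that seals Okazaki fragments, stood at 3.70 FPKM in APL#2 against 5.07 in APL#1, in an interval shared with 6330408A02Rik. Fen1, the nuclease that trims their ends, stood at 1.09 FPKM in APL#2 against 1.03 in APL#1, and like Pola2 it lies on chromosome 19. The subunits of replication protein A, which coats single-stranded DNA, had unequal ratios. Rpa1 stood at 2.50 FPKM in APL#2 against 3.81 in APL#1 (ratio 0.657), Rpa2 at 1.19 FPKM in APL#2 against 1.80 in APL#1 (ratio 0.662), and Rpa3 at 1.75 FPKM in APL#2 against 1.77 in APL#1 (ratio 0.988). The counting intervals of Rpa3 (0.697 to 1.40) and Rpa1 (0.589 to 0.732) overlap.

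Nucleotide supply genes had the lowest median ratio of the 8 roles, 0.462, with 1 exception. Rrm2, the small subunit of ribonucleotide reductase and the one that limits it in S phase, stood at 1.84 FPKM in APL#2 against 4.64 in APL#1, and its ratio was 0.397 with a counting interval of 0.308 to 0.511. Rrm1, the large subunit, stood at 1.15 FPKM in APL#2 against 2.49 in APL#1 (ratio 0.462). Dut, which destroys dUTP and so keeps uracil out of DNA, stood at 0.785 FPKM in APL#2 against 2.19 in APL#1, the lowest ratio of the 48 at 0.359. Tyms, thymidylate synthase, stood at 0.449 FPKM in APL#2 against 0.774 in APL#1, and it has a pseudogene, Tyms-ps. The counting interval of its ratio, 0.297 to 1.13, is wide because few fragments were estimated, from an assumed length of 0.559 kb. Its implied standard error, 1.06 on the log2 scale, was near the median of 1.02 over the 48 genes. Tk1, the thymidine kinase of the salvage route, went the other way, at 1.43 FPKM in APL#2 against 1.14 in APL#1, and its ratio was 1.25 with an interval of 0.946 to 1.66. Tk1 over Tyms was 3.18 in APL#2 and 1.47 in APL#1. The row of Tk1 shares 1 interval with its neighbour Afmid, so the source of its fragments is less certain than for Rrm1 or Rrm2.

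Chromatin assembly genes were lower in APL#2 and E2f1, of the G1/S regulators, lay close to all genes. Chaf1a, the large subunit of the factor that places histones behind the fork, stood at 1.39 FPKM in APL#2 against 2.58 in APL#1, and its partner Chaf1b at 0.530 FPKM in APL#2 against 0.870 in APL#1. Uhrf1, which brings the maintenance DNA methyltransferase to new DNA, stood at 2.21 FPKM in APL#2 against 3.83 in APL#1. Slbp, which binds histone mRNA, stood at 2.32 FPKM in APL#2 against 3.27 in APL#1 (ratio 0.710). E2f1, the activator of many genes of this set, stood at 2.27 FPKM in APL#2 against 2.77 in APL#1 (ratio 0.821), beside a ratio of 0.833 for all measured genes. The cyclin E genes were low in both libraries. Ccne1 stood at 0.203 FPKM in APL#2 against 0.469 in APL#1 (ratio 0.433). Ccne2, which shares an interval with Ints8, stood at 0.300 FPKM in APL#2 against 0.375 in APL#1 (ratio 0.800).

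**Figure D2:**
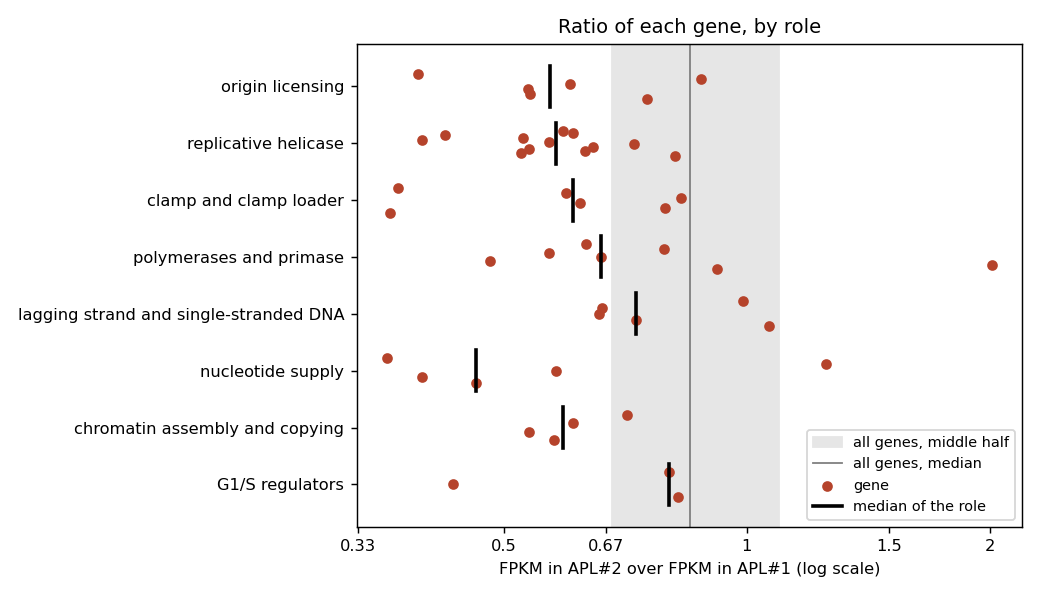
Ratio of FPKM in APL#2 to FPKM in APL#1 (log axis) for each of the 48 genes (red points) by role, with the median of each role (black bar) and the median and interquartile range of the 10204 genes whose mean FPKM was at least 0.1 (grey). Role medians run from 0.462 for nucleotide supply to 0.800 for the G1/S regulators, all left of the all-gene median of 0.851. The G1/S median is over 3 genes and is the ratio of Ccne2, a low gene that shares an interval with Ints8.

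Position in the genome went with some of the largest and smallest ratios. Dut and Pcna lie in a stretch of chromosome 2 where the 70 other measured genes had a median ratio of 0.434, and their own ratios were 0.359 and 0.362. Measured genes within 10 Mb of Pcna had a median ratio of 0.438, so Pcna stood at 0.827 of its neighbours, and Dut at 0.825 of its neighbours. The 3 other genes of the 48 on chromosome 2, Mcm10, Gins1 and E2f1, lie outside that stretch and had ratios of 0.570, 0.528 and 0.821. On chromosome 19, whose 133 other measured genes had a median ratio of 1.63, Pola2 stood at 1.27 of its neighbours and Fen1 at 0.674. Mcm2, in a stretch of chromosome 6 whose 152 other measured genes had a median ratio of 1.13, stood at 0.739 of its neighbours. The stretches were found in these same data, so they are a description.

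Set beside their chromosome neighbours, the replication genes were still mostly low. The ratio was below the median of measured genes within 10 Mb for 44 of the 48, against 47.0% of 10051 genes, and the gene's ratio over its neighbours' had a median of 0.750 over the 48 and 1.02 over all genes. The 4 exceptions were Tk1 (1.60 times its neighbours), Pola2, Rpa3 (1.12) and Pold2 (1.02). By this measure the genes furthest below their neighbours were Gins2 (0.452), Rrm2 (0.463), Rfc5 (0.474) and Cdc45 (0.512), in place of Dut and Pcna. Of these, Gins2 is the least certain, as its row shares 1 interval with Gse1 and its implied standard error is 2.28 on the log2 scale. Outside the 3 stretches, 42 of 43 genes were lower in APL#2, Tk1 being the exception, against 70.1% of 9260 genes there. The median ratio was 0.609 for the 43, against 0.841 for all genes outside the stretches. None of the 43 reached a 2-fold difference in log2(FPKM + 1), which few genes there did. Of 3741 measured genes outside the stretches, 84 were at least 2-fold lower and 67 at least 2-fold higher. A plain ratio of 1/2 or less was found in 8 of the 43 and in 714 of the 9260 genes.

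**Figure D3:**
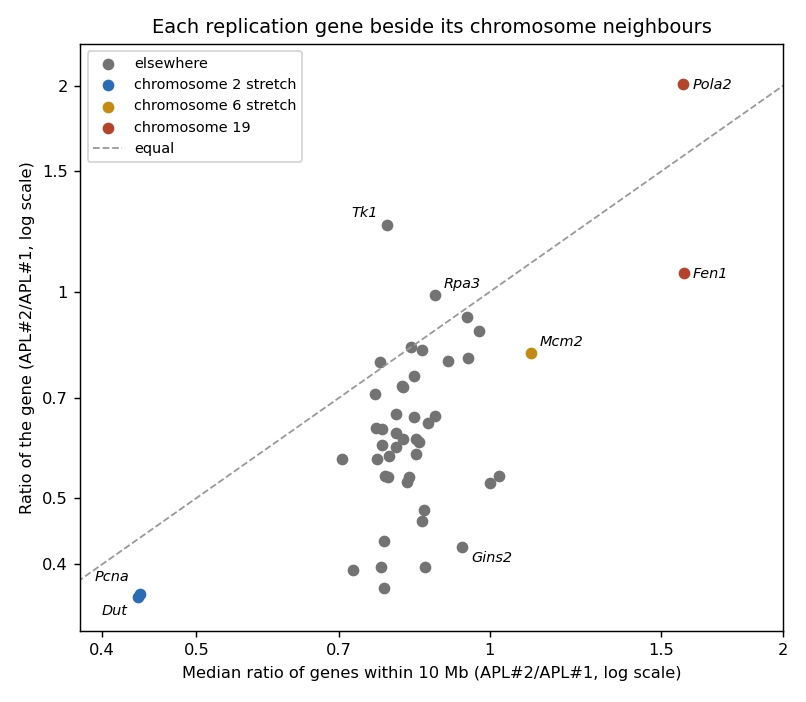
Ratio of APL#2 to APL#1 of each of the 48 genes (vertical, log axis) against the median ratio of measured genes within 10 Mb (horizontal, log axis), coloured by chromosome stretch, with a dashed line where both are equal. Dut and Pcna sit just below the line at the lower left, Fen1 well below it at the right, and Tk1 and Pola2 above it.

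Further genes of replication, chromatin, nucleotide synthesis and S phase entry were taken from 4 other lists, which hold 113 genes of the table and none of the 48. Pooled, they lay nearer to all genes than the 48 did, but the lists differed and are given separately. Of the pool, 55 were measured, and 29 of these were under the median of all genes. None of the 55 reached a 2-fold difference in log2(FPKM + 1), a fold found in 2.44% (lower) and 2.1% (higher) of measured genes. Replication-coupled chromatin genes were the lowest of the 4 lists, where 10 of 11 measured genes were under the median of all genes and the list's own was -0.24 relative to it. Ssrp1, of the histone chaperone FACT, stood at 1.87 FPKM in APL#2 against 4.53 in APL#1 and lies in the chromosome 2 stretch. Hmgb2, a chromatin protein of dividing cells, stood at 8.51 FPKM in APL#2 against 15.3 in APL#1. Npm1, a nucleolar histone chaperone, was the 1 measured gene of that list with more in APL#2, at 14.9 FPKM against 11.0 in APL#1.

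Measured genes of the list of other replisome and checkpoint genes lay closer to all genes. Of these 13, 7 were under the median of all genes, and the list's own was -0.10 relative to it. With low genes kept, the list stood between the 48 and all genes. Of its 36 genes, 30 were lower in APL#2, against 67.3% of genes whose mean FPKM was at least 0.1. A ratio of 1/1.5 or less was found in 15 of the 36, against 23.0%. The median ratio was 0.723, beside 0.609 for the 48 and 0.851 for all genes at that level. Top2a, the topoisomerase that untangles copied DNA, stood at 1.77 FPKM in APL#2 against 3.02 in APL#1, and Topbp1, which helps to fire origins, at 1.17 FPKM in APL#2 against 2.11 in APL#1. The 3 measured genes higher in APL#2 lie in the shifted stretches. Pold4, the small subunit of polymerase delta, stood at 3.03 FPKM in APL#2 against 1.65 in APL#1, and Rnaseh2c at 2.38 FPKM in APL#2 against 1.46 in APL#1, both on chromosome 19. Pole4 stood at 1.48 FPKM in APL#2 against 1.34 in APL#1, on chromosome 6.

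Other nucleotide synthesis genes lay on the whole slightly above all genes, unlike Rrm2 and Dut. Of 18 measured genes of purine, pyrimidine and folate metabolism, 5 were under the median of all genes, and the list's own was 0.09 relative to it. Nme1, a nucleoside diphosphate kinase, had the largest difference, at 1.73 FPKM in APL#2 against 3.99 in APL#1, whereas its close relative Nme2 stood at 9.17 FPKM in APL#2 against 10.3 in APL#1. Dguok, a mitochondrial deoxynucleoside kinase in the chromosome 6 stretch, was the furthest in the other direction, at 1.26 FPKM in APL#2 against 0.802 in APL#1. Impdh1, which makes guanine nucleotides, stood at 5.69 FPKM in APL#2 against 4.84 in APL#1. Relative to all genes, the median of E2F and S phase entry genes was -0.02, which turned positive with a pseudocount of 0.1, with upper-quartile scaling and at a mean FPKM of at least 2. Of its 13 measured genes, 7 were under the median of all genes. Cks1b, a partner of cyclin-dependent kinases, stood at 2.22 FPKM in APL#2 against 4.45 in APL#1, Cdk4, a kinase of G1, at 3.48 FPKM in APL#2 against 6.42 in APL#1, and the inhibitor gene Cdkn1a at 2.07 FPKM in APL#2 against 1.41 in APL#1.

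Mitosis genes stood further from all genes than the replication genes did. Under the median of all genes were 18 of 20 measured mitosis genes, whose own was -0.47 relative to it, beside -0.29 for the 34 measured replication genes. Their FPKM summed to 46.5 in APL#2 and 86.1 in APL#1 over 30 genes, a ratio of 0.540 beside 0.605 for the replication genes. Mad2l1, of the spindle checkpoint, stood at 1.89 FPKM in APL#2 against 5.58 in APL#1, and Ube2c, which targets mitotic cyclins, at 9.27 FPKM in APL#2 against 20.2 in APL#1. The 2 measured mitosis genes with more in APL#2, Incenp (4.25 FPKM in APL#2 against 2.82 in APL#1) and Kif11 (1.29 FPKM in APL#2 against 1.19 in APL#1), lie on chromosome 19, as Pola2 and Fen1 do.

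**Figure D4:**
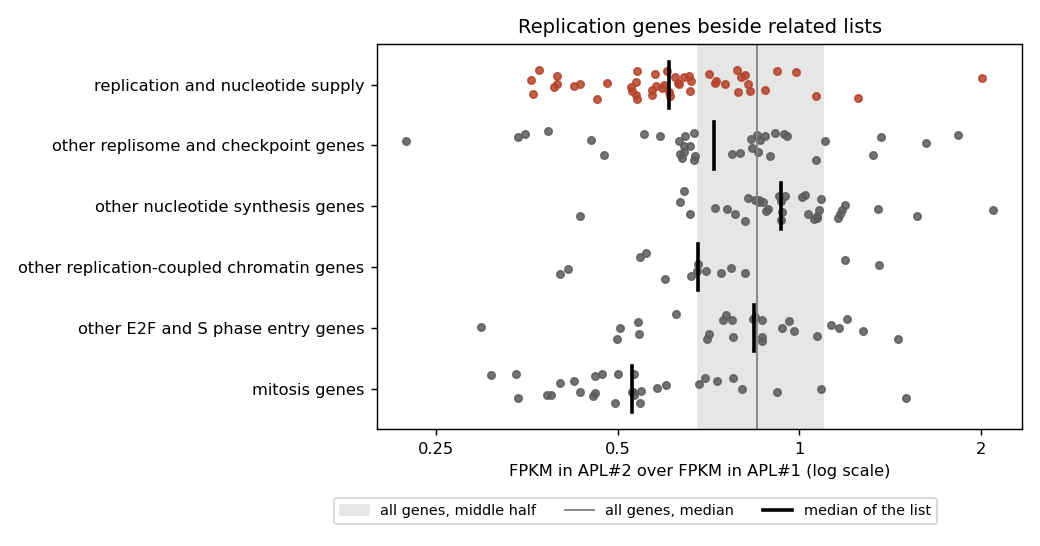
Ratio of FPKM in APL#2 to FPKM in APL#1 (log axis) for the replication and nucleotide supply genes (red) and for genes of 5 other lists whose mean FPKM was at least 0.1 (dark grey points), with list medians (black bars) and the median and interquartile range of all such genes (light grey). The medians are 0.609 for the 48 genes, 0.529 for mitosis and 0.934 for other nucleotide synthesis genes.

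Markers of other cells of the spleen were mostly low. The selection for CD45.2 would remove recipient blood cells, which are CD45.1+, and stroma and endothelium, which lack CD45, so these lists look for what passed it. All 10 promyelocyte markers were measured, 8 of them lower in APL#2, against 71.6% of all measured genes, and 6 were under the median of all genes. They summed to 208.5 FPKM in APL#2 against 740.5 in APL#1, mostly myeloperoxidase. Erythroblasts divide in the spleen, and their 11 markers in the table were all under a mean FPKM of 1, summing to 0.602 FPKM in APL#2 against 0.830 in APL#1, most of it Tfrc, which other dividing cells also express, with Hbb-b2, Epor and Slc4a1 listed at 0 in both. The 10 B cell markers summed to 0.699 FPKM in APL#2 against 0.665 in APL#1, none of them at 0 in both. The 11 T cell and NK cell markers summed to 0.507 FPKM in APL#2 against 0.0972 in APL#1, with Ncr1 listed at 0 in both. Of 10 macrophage and dendritic cell markers, 9 were under a mean FPKM of 1, and the list summed to 8.19 FPKM in APL#2 against 4.09 in APL#1, most of it Vcam1 (7.47 FPKM in APL#2 against 3.94 in APL#1), with Marco, Cd209a and Siglech listed at 0 in both. Emr1, a surface receptor gene of macrophages, stood at 0.537 FPKM in APL#2 against 0.0230 in APL#1. Of 8 stroma and endothelium markers, 7 were under that level, and the list summed to 1.63 FPKM in APL#2 against 3.64 in APL#1, nearly all Pecam1, with Col1a2, Col3a1, Kdr, Lum and Dcn listed at 0 in both. The part of these cells in the replication genes' ratios was not tested.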

How the data were processed

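RNA of CD45.2+ spleen cells from APL#2 and APL#1 was measured in 1 library per leukaemia. Tools named in the submitters' processing notes are Cuffdiff, Cufflinks and TopHat2 2.0.10, and the build mm9, without roles; the annotation, strand and normalization, not given in the sources used here, bear on overlapping genes. The value columns deposited by the authors were read as FPKM from their Cuffdiff layout, since the header names no unit. The deposited table also holds the authors' test statistic, a score per gene, with their p-value and q-value, per the file headers; standard errors were taken as the size of the log2 fold over that statistic. A difference is log2(FPKM + 1) in APL#2 minus that in APL#1, which understates changes of low genes, and ratios are plain FPKM ratios, which are wider at low values. A pseudocount of 1 and a mean FPKM of 1 for measured genes were used. All computing was done in Python 3.11.15.

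The worth of 1 fragment came from 3168 low genes, 305 of which shared 1 ratio within 0.1%, and from 28 of these with 1 transcript in GENCODE; the method was tested on simulated data. The implied scaling totals were about 55612000 fragments for APL#2 and 51418000 for APL#1. Fragments per gene used the median GENCODE length of coding transcripts, so they are estimates. Coordinates in the table are mm9 and were used only to find neighbours; promoters are GRCm38.p6. Of the 48 genes, 7 share an interval with another gene. The members, roles and lists were chosen with earlier results of these data known. Named genes were all 48, and from each other list up to 3 measured genes with the largest difference in each direction. Nme2 and the markers fall outside that rule; their values were known when they were named. Alternatives were other pseudocounts, filters, scaling and gene exclusions.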

Additional observations from a re-analysis of the deposited data

How the results depend on the processing

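No paired analysis was possible because each leukaemia has 1 library, and for the same reason no library could be left out. The median difference of the 34 measured replication genes relative to all genes, -0.29, stayed between -0.37 and -0.23 in the 8 alternatives run. The count at least 2-fold lower was 1, and it was 8 with a pseudocount of 0.1, 4 with 0.5 and 0 without chromosomes 2, 6 and 19, which leaves out Pcna. The share of all measured genes past that fold, 2.44%, was taken with a pseudocount of 1 only. A smaller pseudocount widens the differences of all genes, so the counts of 8 and 4 cannot be set against that share. The count below the all-gene median was 28 of 34; it was 16 of 16 at a mean FPKM of at least 2 and 44 of 48 with no filter on low values, as fewer or more genes entered. Pcna's difference of -1.26 was -1.05 with upper-quartile scaling. The ratio of summed levels, 0.605, was 0.715 with that scaling, 0.623 without Pcna, Lig1 and Mcm6, and 0.586 without the 7 genes that share an interval, an alternative chosen after seeing the data. The median of E2F and S phase entry genes, -0.02, was 0.0107 with a pseudocount of 0.1, 0.0089 with upper-quartile scaling and 0.0021 at a mean FPKM of at least 2. It stayed negative in the other alternatives, down to -0.0986 with no filter on low values. The cause was not tested. Depth limits the low genes most: Tyms and Ccne1 rested on an estimated 14 and 15 fragments in APL#2. These estimates, and the counting intervals of all genes, depend on the transcript length assumed, 0.559 kb for Tyms.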
